A study of Mus musculus with 9 samples.

Results

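Glycolysis, lactate and pyruvate handling was followed through 33 genes in mouse primary renal tubular epithelial cells. The genes were taken by name, from the glucose transporter Slc2a1 to the pyruvate dehydrogenase phosphatase Pdp1, and make up 33 of the 31167 genes in the deposited table. All 33 names were found. Aldoa stood on 2 rows with different gene identifiers, so the set covered 34 rows. RNA had been sequenced in 3 groups of 3 libraries, all from primary cells of C57BL/6 mouse kidney. Sham cells were the untreated control. H/R cells were kept for 6 h in glucose-free medium at 1.0% oxygen and then for 18 h in complete medium with normal oxygen, so low oxygen and the lack of glucose cannot be told apart. EGR1OV cells were transfected with a plasmid that expresses the transcription factor Egr1 from a CMV promoter, which is not restricted to tubule cells. Among the samples used here no group received an empty plasmid, so transfection and Egr1 cannot be told apart in EGR1OV. The time from transfection to collection of the EGR1OV cells is not given in the sources used here. Whether the groups also differed in time in culture therefore cannot be said. The age of the mice and whether the 3 libraries of a group came from separate cultures or animals are not given in the sources used here. If they did not, the p-values below measure only the spread between these samples, which may be technical.

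Glycolysis splits glucose into a pair of pyruvate molecules in the cytosol and yields ATP without oxygen. Pyruvate is then either reduced to lactate by lactate dehydrogenase and exported, or carried into mitochondria and turned into acetyl-CoA by the pyruvate dehydrogenase complex, which pyruvate dehydrogenase kinases switch off. Many of these genes are known targets of the hypoxia-inducible factor HIF. Proximal tubule cells in the kidney live mainly on oxidation of fatty acids and make glucose, while cultured tubule cells are known to turn to glycolysis.

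Values were FPKM, the fragments of a gene per kilobase of exon, scaled to library size. Levels can be set side by side between genes only as far as the exon lengths fit the transcripts present. Library depth recovered from the table was 16183617 to 18384022 reads. Egr1 itself stood at 6.20, 6.91 and 6.09 FPKM in Sham, 8.57, 7.59 and 7.48 after H/R, and 45.7, 42.2 and 40.1 with EGR1OV. The EGR1OV libraries were thus all above the others. Epithelial and tubule markers were present in Sham, with means of 13.1 FPKM for Pax8, 24.3 for Cdh16 and 1014 for Krt8. Markers of mature proximal tubule differed. The endocytic receptor Lrp2 was at 3.60 FPKM in Sham, the water channel Aqp1 at 1.23 to 1.43 and the receptor Cubn at 0.540, while Slc22a6 was at 0 in all 9 libraries and Slc34a1 at no more than 0.0362 FPKM. The gluconeogenic enzyme Pck1 was also listed at 0 in all 9 libraries. In these bulk samples, fewer cells of a type and less RNA per cell cannot be told apart.

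By FPKM, the pathway in Sham cells was led by its lower steps. Eno1, the main enolase, had the highest mean at 250 ± 2.50 FPKM (SD, n = 3). Pkm, pyruvate kinase, followed with 201 ± 6.61 FPKM. Aldoa, the aldolase that cleaves the 6-carbon sugar, and Pgam1, the phosphoglycerate mutase, came next at 187 ± 2.74 and 185 ± 3.68 FPKM and overlapped between libraries. The transporter Slc2a1 was at 45.5 ± 0.934 FPKM and the hexokinase Hk2, which traps glucose by phosphorylation, at 33.6 ± 1.70 FPKM. The lowest members were Aldoc, a minor aldolase, at 0.317 ± 0.103 FPKM and Mpc1, a subunit of the mitochondrial pyruvate carrier, at 1.06 ± 0.176 FPKM. Gapdh, the glyceraldehyde-3-phosphate dehydrogenase, stood at only 47.6 ± 2.91 FPKM. The annotation behind the values gives Gapdh an exon length of 4133 bases over all its transcripts, and FPKM divides by such a length, so levels of genes with long, rarely used exons read low. Eno1, Pgam1, Tpi1, Pgk1, Ldha and Gapdh have near-identical copies in the genome, of which Eno1b was at 26.8 to 29.9 FPKM and Pgam1-ps2 at 9.50 to 10.3 FPKM in Sham. How reads shared between such copies were assigned is not given in the sources used here, so the levels of these 6 genes are uncertain to that extent.

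**Figure D1:**
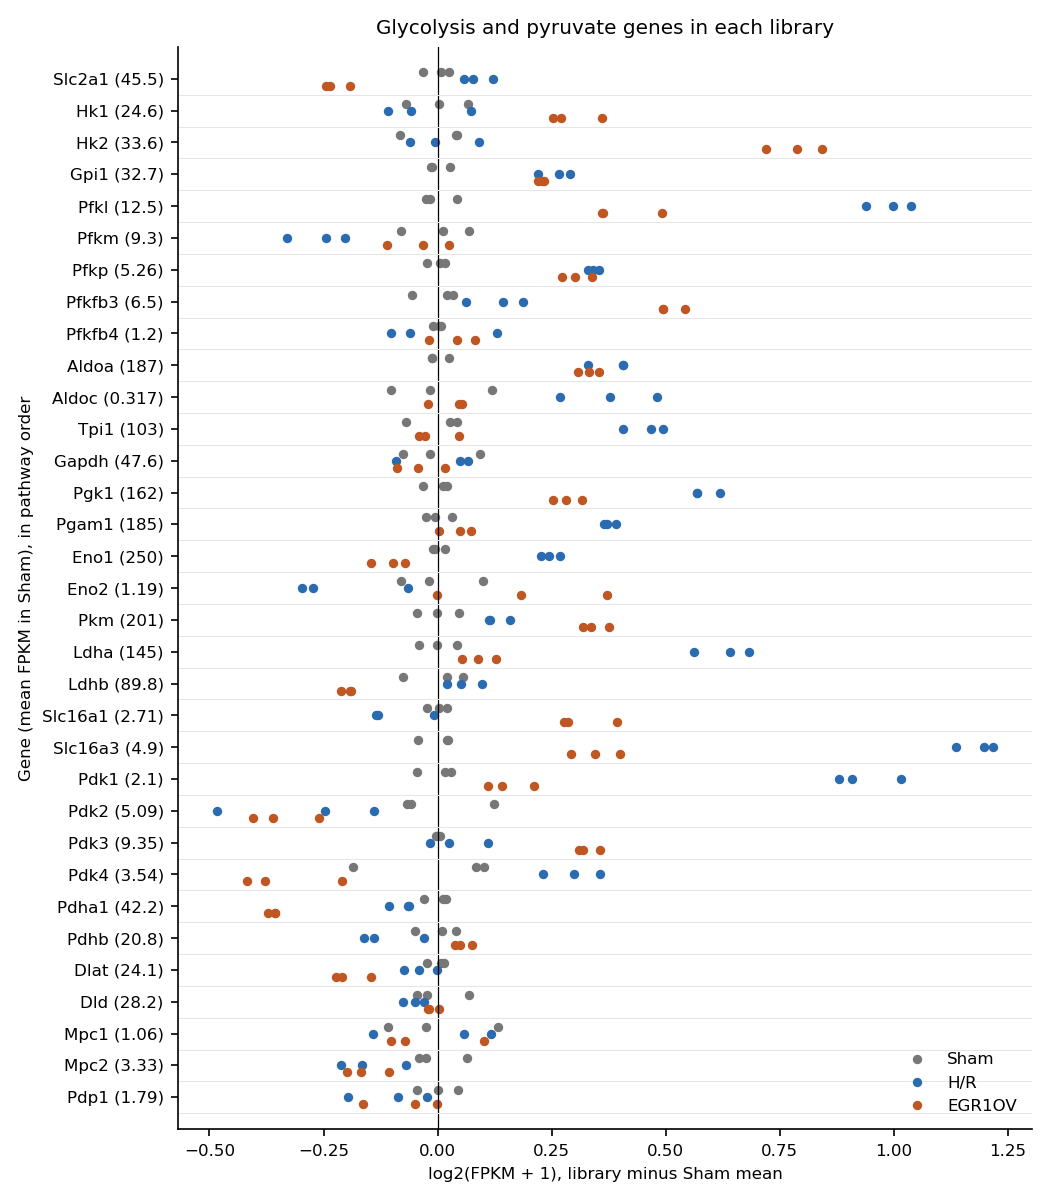
Each point is 1 library of Sham (grey), H/R (blue) or EGR1OV (orange), plotted as log2(FPKM + 1) minus the mean of Sham, for the 33 genes in pathway order with their Sham mean in FPKM. The blue points of Slc16a3, Pfkl and Pdk1 lie farthest to the right, the orange points of Hk2 lie apart from both other groups, and the points of Gapdh overlap.

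After H/R, 9 of the 32 members tested were higher than in Sham. All but the kinase Pdk1 lay at steps of the route from fructose-6-phosphate to exported lactate. The 9 were phosphofructokinases Pfkl and Pfkp, then Aldoa, Tpi1, Pgk1 and Pgam1 of the middle steps, Ldha and Slc16a3 of lactate output, and Pdk1. The kinase Pdk1 inactivates pyruvate dehydrogenase. A gene was called when its limma adjusted p was under 0.05 and its change at least 1.2-fold on the log2(FPKM + 1) scale. Of all 13985 genes tested, 1.6% were called higher and 2.65% lower. No member was called lower by limma in this fit. In alternative limma fits, Pfkm was called lower with a pseudocount of 0.1 and without Sham replicate 3, H/R replicate 1 or H/R replicate 2. Pdk2 was also called lower without H/R replicate 2. At an unadjusted p under 0.05, 15 members were higher and 5 lower, against 9.57% and 18.5% of all genes. Run on the recovered reads, limma voom called 11 members higher and 2 lower (Pfkm and Pdk2), against 2.38% and 4.78% of all genes. The median log2 change of the 32 members was 0.048 and that of all genes -0.030. Aldoc, with a mean below 0.5 FPKM over all libraries, did not enter the test. Of all calls, 37.7% were higher with the values as deposited, 57.9% when libraries were scaled by median ratios and 56.1% when they were quantile-normalized. All 9 member calls held in every alternative fit in which the gene was tested, at the 1.2-fold threshold.

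The largest change was in Slc16a3 (ENSMUSG00000025161, chr11:120948480-120960868 in the table, GRCm38), which encodes MCT4, the transporter that exports lactate from glycolytic cells. Sham libraries held 4.99, 4.72 and 4.99 FPKM and H/R libraries 12.7, 11.96 and 12.5, a ratio of means of 2.53. The lowest H/R library was thus well above the highest Sham library, and the log2 change was 1.18 (SE 0.042, limma adjusted p 5.61e-06). Slc16a1, which encodes MCT1 and carries lactate in either direction, was not called. It stood at 2.72, 2.66 and 2.77 FPKM in Sham and at 2.69, 2.38 and 2.40 in H/R, with overlapping libraries and a log2 change of -0.09 (SE 0.055, limma adjusted p 0.326). Slc16a3 made up 64.4% ± 0.346 of the FPKM of the pair in Sham and 83.3% ± 0.715 after H/R (SD, n = 3).

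Ldha (ENSMUSG00000063229, chr7:46841475-46855627), the subunit of lactate dehydrogenase that favours lactate, rose from 141, 145 and 149 FPKM in Sham to 233, 226 and 214 in H/R. Its libraries did not overlap, and the log2 change was 0.63 (SE 0.037, limma adjusted p 6.17e-05). Ldhb, the subunit that favours the return to pyruvate, was at 91.0, 85.1 and 93.3 FPKM in Sham and at 91.0, 96.1 and 93.0 in H/R. These libraries overlapped, with a log2 change of 0.06 (SE 0.036, limma adjusted p 0.345). The Ldha share of the pair was 61.7% ± 1.13 in Sham and 70.6% ± 1.16 in H/R (SD, n = 3).

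Phosphofructokinase, the committed step of glycolysis, is encoded by 3 genes, of which the liver-type Pfkl (ENSMUSG00000020277, chr10:77986947-78010083) had the largest change. It rose from 12.4, 12.9 and 12.3 FPKM in Sham to 26.7, 26.0 and 24.9 in H/R, a ratio of 2.07. Every H/R library was above every Sham library, with a log2 change of 0.99 (SE 0.044, limma adjusted p 1.67e-05). Pfkp, the platelet-type gene, rose less, from 5.16, 5.28 and 5.33 to 6.995, 6.93 and 6.86 FPKM (log2 change 0.34, SE 0.035, limma adjusted p 0.000785). Pfkm, the muscle-type gene, was at 9.38, 9.80 and 8.73 FPKM in Sham and at 7.94, 7.69 and 7.19 in H/R, lower in all libraries. Its log2 change of -0.26 (SE 0.054, limma adjusted p 0.0181) was under the 1.2-fold threshold. The share of Pfkl in the FPKM of this step was 46.3% ± 0.342 in Sham and 64.1% ± 0.107 after H/R, and that of Pfkm 34.3% ± 1.03 and 18.8% ± 0.322 (SD, n = 3). Such shares depend on the exon lengths, here 13401 bases for Pfkp and 3340 for Pfkm. In recovered reads of Sham, Pfkp had 1137 to 1233 and Pfkm 481 to 570.

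Pdk1 (ENSMUSG00000006494, chr2:71873224-71903858), a kinase that inactivates pyruvate dehydrogenase, stood at 2.001, 2.16 and 2.13 FPKM in Sham and at 4.81, 4.70 and 5.26 in H/R. The ratio of means was 2.35 and the libraries did not overlap (log2 change 0.93, SE 0.054, limma adjusted p 6.17e-05). Its 3 relatives were not called. Pdk2 was at 4.81, 4.84 and 5.63 FPKM in Sham and at 4.12, 4.52 and 3.35 in H/R (log2 change -0.29, SE 0.091, limma adjusted p 0.0731). Pdk3 was at 9.33, 9.38 and 9.34 FPKM in Sham and at 9.53, 9.24 and 10.2 in H/R, which overlapped. Pdk4 was at 3.79, 2.97 and 3.85 FPKM in Sham and at 4.56, 4.31 and 4.79 in H/R (log2 change 0.30, SE 0.087, limma adjusted p 0.0599). The Pdk4 libraries did not overlap, and the gene was called under median-ratio scaling (limma adjusted p 0.0461) and in 3 other alternatives. The pyruvate dehydrogenase complex, their target, had log2 changes of -0.08 for Pdha1, -0.11 for Pdhb, -0.04 for Dlat and -0.05 for Dld, the subunits of the complex, none of them called.

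Among the middle steps, Pgk1, the phosphoglycerate kinase that forms ATP, rose from 163, 158 and 164 FPKM to 249, 240 and 240. This was a log2 change of 0.59 (SE 0.027, limma adjusted p 1.67e-05) with no overlap. Tpi1, the triosephosphate isomerase, rose from 103 ± 4.30 to 141 ± 4.49 FPKM (log2 change 0.46, limma adjusted p 0.000358). Aldoa rose from 187 ± 2.74 to 244 ± 7.44 FPKM and Pgam1 from 185 ± 3.68 to 240 ± 2.36 (SD, n = 3 each), both with a log2 change of 0.38. Eno1 and Gpi1, the glucose-6-phosphate isomerase, were just under the 1.2-fold threshold, with log2 changes of 0.25 (limma adjusted p 0.00078) and 0.26 (limma adjusted p 0.000767). Both were called once libraries were scaled by median ratios or quantile-normalized. Pkm had a log2 change of 0.13 (limma adjusted p 0.0254), also under the threshold. Gapdh, which stands between Tpi1 and Pgk1, was at 50.8, 47.0 and 45.0 FPKM in Sham and at 49.8, 44.6 and 49.2 in H/R, a log2 change of 0.01 (SE 0.055, limma adjusted p 0.947).

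The genes of glucose entry and of pyruvate entry into mitochondria were not called. Slc2a1 had a log2 change of 0.09 (SE 0.028, limma adjusted p 0.0825) with all H/R libraries above all Sham libraries, and Hk1 and Hk2 had changes of -0.03 and 0.01 with overlapping libraries. In H/R, Hk1 was at 25.9, 23.5 and 22.7 FPKM and Hk2 at 35.8, 32.2 and 33.5. Pfkfb3 and Pfkfb4, which set the level of the phosphofructokinase activator fructose-2,6-bisphosphate, had log2 changes of 0.13 and -0.01. Their H/R libraries held 7.54, 6.83 and 7.28 FPKM of Pfkfb3 and 1.41, 1.05 and 1.11 of Pfkfb4. Mpc1 and Mpc2 of the pyruvate carrier had changes of 0.01 and -0.15, Pdp1 of -0.10 and the neuronal-type enolase Eno2 of -0.21, with limma adjusted p values of 0.121 and above. Aldoc was listed at 0.224, 0.299 and 0.427 FPKM in Sham and at 0.833, 0.584 and 0.708 in H/R, from 12 to 44 recovered reads per library. In the fit without the filter on low values its log2 change was 0.38 (SE 0.077, limma adjusted p 0.0437).

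**Figure D2:**
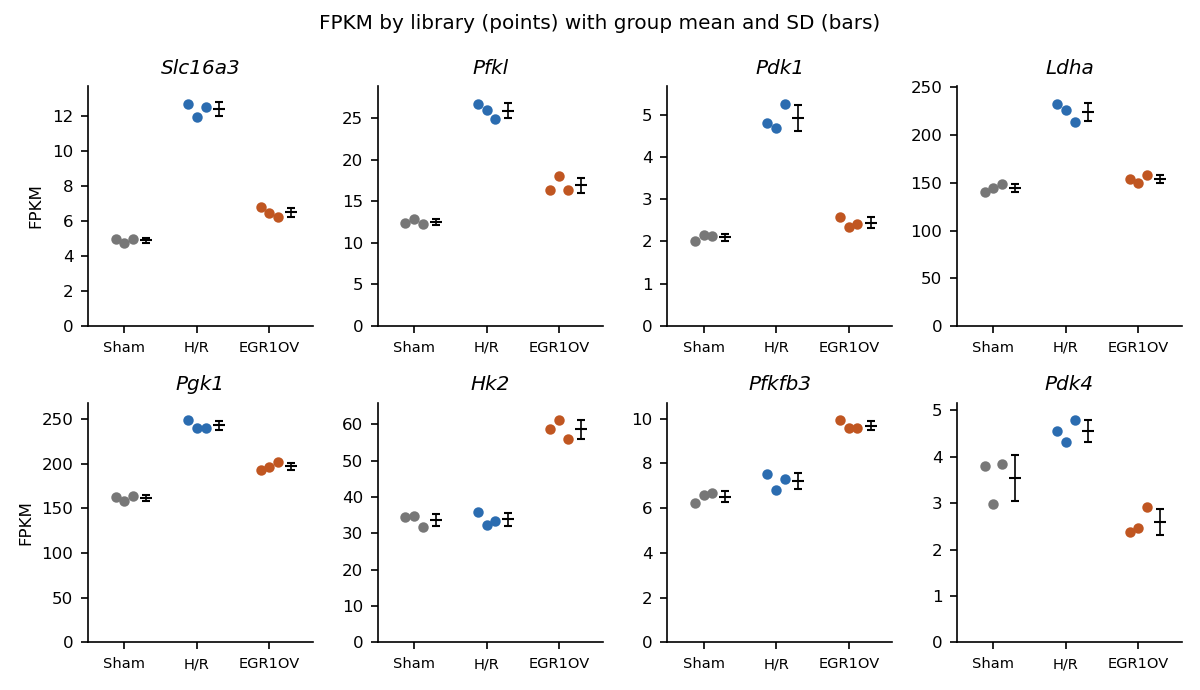
FPKM of 8 genes in each library (points), with the group mean and SD as bars (n = 3 per group). In the panels of Slc16a3, Pfkl, Pdk1, Ldha and Pgk1 the H/R libraries are the highest, in those of Hk2 and Pfkfb3 the EGR1OV libraries are, and for Pdk4 the EGR1OV libraries are the lowest.

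Promoters of 4 members are shown because these genes changed most at lactate output (Slc16a3, Ldha), at an ATP-forming step (Pgk1) and at the entry of the pathway in EGR1OV (Hk2). Each is the 250 bases before the transcription start, 5′ to 3′ on the strand of the gene, from RefSeq on GRCm38.p6. The letters ACGTG, the core of the sites that HIF and other factors are known to bind, are in capitals on either strand (CACGT is ACGTG on the opposite strand). The Slc16a3 window is chr11:120948817-120949066 on the plus strand, the Pgk1 window chrX:106186850-106187099 on the plus strand, the Ldha window chr7:46845554-46845803 on the plus strand and the Hk2 window chr6:82774455-82774704 on the minus strand. Ldha has 2 starts in RefSeq, of which the first is shown, and the last 14 bases of the Slc16a3 window lie in an exon of another annotated transcript.
Slc16a3: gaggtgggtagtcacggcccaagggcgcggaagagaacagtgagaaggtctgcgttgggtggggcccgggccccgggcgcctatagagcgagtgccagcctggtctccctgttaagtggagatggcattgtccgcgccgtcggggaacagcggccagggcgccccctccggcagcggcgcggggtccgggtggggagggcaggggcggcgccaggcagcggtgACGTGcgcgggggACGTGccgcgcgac
Pgk1: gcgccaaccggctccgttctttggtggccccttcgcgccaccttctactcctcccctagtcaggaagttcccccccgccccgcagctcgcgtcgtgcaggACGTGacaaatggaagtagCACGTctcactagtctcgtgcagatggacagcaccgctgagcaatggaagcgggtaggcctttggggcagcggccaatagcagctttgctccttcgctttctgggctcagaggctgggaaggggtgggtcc
Ldha: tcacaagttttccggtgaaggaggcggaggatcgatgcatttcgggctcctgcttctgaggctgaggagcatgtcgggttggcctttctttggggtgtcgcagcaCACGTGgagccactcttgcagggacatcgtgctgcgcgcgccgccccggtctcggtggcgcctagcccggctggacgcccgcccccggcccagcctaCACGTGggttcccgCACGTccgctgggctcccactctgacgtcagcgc
Hk2: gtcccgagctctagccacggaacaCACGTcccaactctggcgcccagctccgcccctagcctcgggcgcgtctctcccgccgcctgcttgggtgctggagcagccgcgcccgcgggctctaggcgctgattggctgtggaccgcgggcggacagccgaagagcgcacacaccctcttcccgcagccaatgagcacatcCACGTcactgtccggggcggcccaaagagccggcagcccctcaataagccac

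In the Slc16a3 window the matches began 27 and 14 bases before the start, and in Pgk1 150 and 131 bases before it. The Ldha window held 5 matches, which began 145, 144, 48, 47 and 34 bases before the start, and 4 of them form the overlapping pairs of CACGTG. The Hk2 window, of a gene that did not pass the test after H/R, also held matches, at 226 and 52 bases. The 4 windows shown all held ACGTG, but those of Pfkl and Pdk1, with larger changes after H/R than Ldha and Pgk1, held 0. The second Ldha window also held 0. Windows were found for 32 of the 33 members, and a gene with several starts was counted when any of its windows matched. Members had more windows per gene (47 for 32 members) than all genes (32851 for 27025), which raises their counts. All genes with a window were taken, expressed here or not. ACGTG was present for 14 of 32 members (43.8%), against 18.5% of all 27025 genes with a window. It was present for 5 of the 9 members called after H/R (55.6%) and for 9 of the other 23 (39.1%). The related core GCGTG was present for 21 of 32 members (65.6%) against 30.9% of all genes, for 5 of the 9 called members and for 16 of the other 23 (69.6%). The Egr1-type motif GCGNGGGCG was present for 2 of 32 members (6.25%), Eno1 and Pfkp, against 5.33% of all genes. These matches are letters in a window and no measure of binding.

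In EGR1OV, Hk2, Pfkfb3 and Pfkl were called higher than in Sham, which is 3 of 32 members. The threshold here was 1.3-fold at a limma adjusted p under 0.05, and of all genes 9.87% were called higher and 6.51% lower, so the members' share was close to that of all genes. No member was called lower by limma in this fit. At an unadjusted p under 0.05, 14 members were higher and 8 lower, against 29.5% and 23% of all genes. On the recovered reads limma voom called 5 higher and 2 lower (Pdk2 and Pdk4), against 12.4% and 9.16% of all genes. The median log2 change was 0.048 for the members and 0.017 for all genes. Of all calls, 60.3% were higher as deposited and 45.7% after quantile normalization, where 2 members were called higher and 3 lower. Without EGR1OV replicate 3 the number of members called was 5, with Pdk2 and Pdk4 added as lower. Both were also called lower with a pseudocount of 0.1, and Pdk4 without Sham replicate 2.

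Hk2 (ENSMUSG00000000628, chr6:82725025-82774454), the inducible hexokinase, was at 34.6, 34.6 and 31.7 FPKM in Sham and at 58.8, 61.1 and 56.0 in EGR1OV, a ratio of 1.74. Its EGR1OV libraries stood above all Sham and H/R libraries (log2 change against Sham 0.78, SE 0.051, limma adjusted p 1.87e-06). Hk1, the hexokinase of most tissues, was at 24.6, 25.8 and 23.3 FPKM in Sham and at 29.5, 31.8 and 29.8 in EGR1OV. That log2 change of 0.29 (SE 0.054, limma adjusted p 0.00183) was under the threshold. The Hk2 share of the pair was 57.8% ± 0.588 in Sham and 65.9% ± 0.687 in EGR1OV (SD, n = 3).

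Pfkfb3 was at 6.22, 6.61 and 6.68 FPKM in Sham and at 9.92, 9.57 and 9.57 in EGR1OV, without overlap. The log2 change was 0.51 (SE 0.044, limma adjusted p 1.27e-05). Pfkfb4 was at 1.19, 1.21 and 1.21 FPKM in Sham and at 1.17, 1.27 and 1.33 in EGR1OV, with overlapping libraries. Pfkl was at 16.4, 18.0 and 16.3 FPKM in EGR1OV, above all Sham libraries and below all H/R libraries. It differed from Sham by 0.40 on the log2 scale (SE 0.044, limma adjusted p 6.74e-05), close to the threshold, and the call was lost after quantile normalization (0.30) and without EGR1OV replicate 2.

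With no fold threshold, 13 members were above Sham in EGR1OV and 8 below at a limma adjusted p under 0.05, against 26.1% and 19.8% of all genes. Those above, beside the 3 called, included Slc16a3 (log2 change 0.35), Pkm (0.34), Aldoa (0.33), Pdk3 (0.33), Slc16a1 (0.32), Pfkp (0.30) and Pgk1 (0.28). Below Sham were Pdha1, the catalytic subunit gene of pyruvate dehydrogenase (-0.36), Pdk2 (-0.34), Pdk4 (-0.34), Slc2a1 (-0.22), Ldhb (-0.20), the complex subunit Dlat (-0.19), Mpc2 (-0.16) and Eno1 (-0.11). Pdha1 stood at 42.2 ± 0.764 FPKM in Sham and 32.7 ± 0.196 in EGR1OV (SD, n = 3), with no overlap, and was called lower under both other scalings. Pfkp was at 6.70, 6.55 and 6.91 FPKM in EGR1OV, above all Sham libraries. Pdk2 was at 3.598, 3.73 and 4.08 FPKM and Pdk3 at 12.3, 11.9 and 11.8. Both groups of libraries lay apart from Sham. Ldhb was at 78.5, 77.4 and 78.5 FPKM in EGR1OV and Pfkm at 9.06, 8.53 and 9.47, of which the latter overlapped with Sham. Ldha had a log2 change of 0.09 (limma adjusted p 0.0759), Gapdh of -0.04 and Tpi1 of -0.01.

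**Figure D3:**
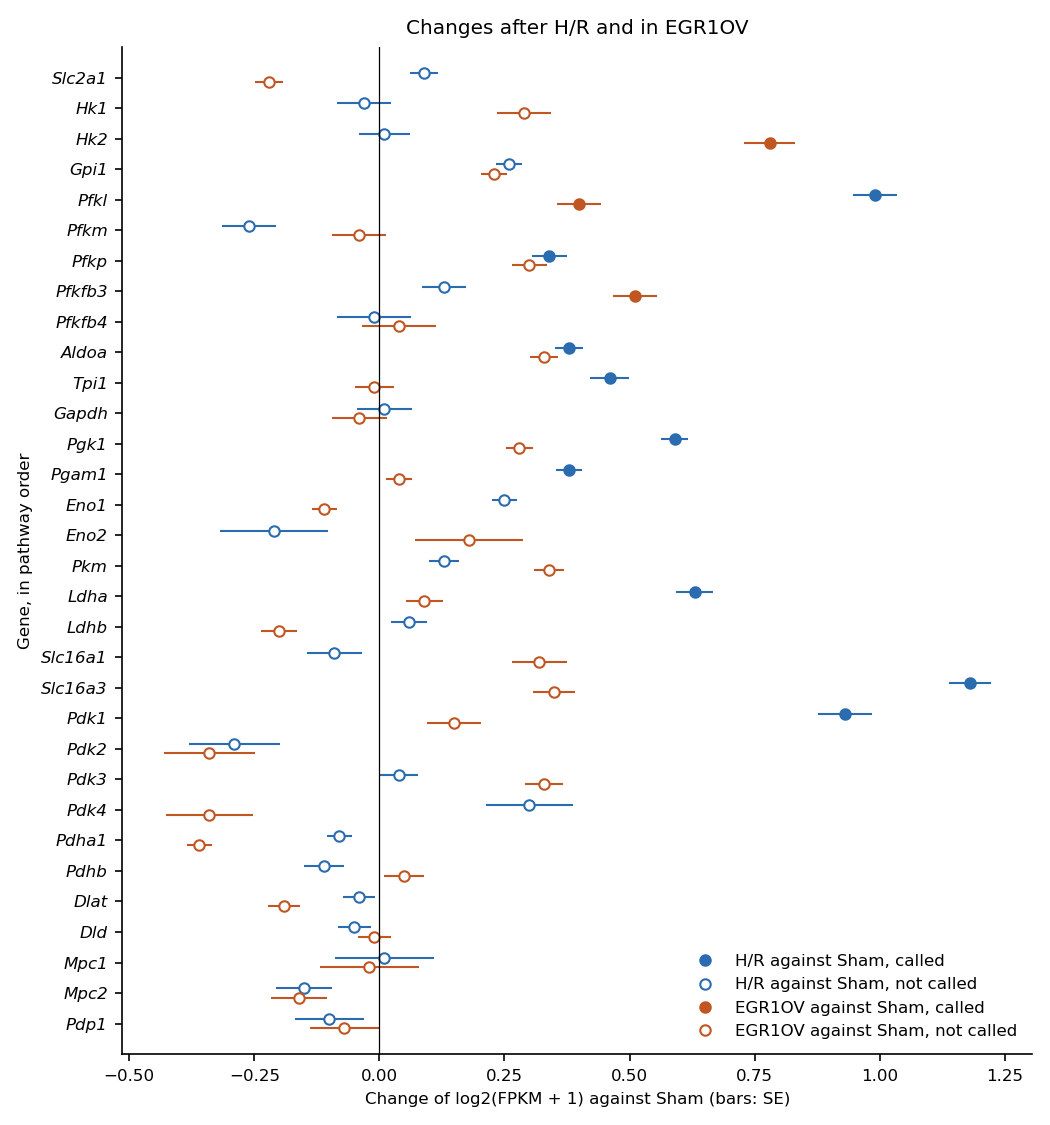
Log2 change of FPKM + 1 against Sham with its SE (bars) for the 32 members tested, after H/R (blue) and in EGR1OV (orange), with filled points for called genes. The 9 filled blue points reach from Pfkl to Pdk1, and the 3 filled orange points are Hk2, Pfkl and Pfkfb3. Both changes were taken against the same 3 Sham libraries.

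The effects of H/R and of EGR1OV were compared directly as EGR1OV against H/R, with 1.3-fold and the same limma test. Of the members, 4 were called higher in EGR1OV and 6 lower, against 11.9% and 6.94% of all genes. The higher ones were Hk2, Pfkfb3, Slc16a1 and Eno2, and the lower ones Slc16a3, Pdk1, Pdk4, Pfkl, Ldha and Tpi1. The median log2 difference was -0.042 for the members and 0.055 for all genes. Of all calls, 63.2% were higher as deposited, 52.1% with median-ratio scaling and 42.5% with quantile normalization. Under both of these scalings the calls of Pfkfb3, Slc16a1 and Eno2 were lost, while Hk2 and the 6 lower genes were still called. Eno1 and Pgam1 were called lower under both, and Slc2a1 and Pdha1 under quantile normalization. The members then split into 1 higher and 8 lower with median ratios and 1 higher and 10 lower with quantile normalization.

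Slc16a3 was at 6.78, 6.49 and 6.22 FPKM in EGR1OV, between the Sham and the H/R libraries, and 0.84 below H/R on the log2 scale (-0.84, SE 0.042, limma adjusted p 2.92e-07). Slc16a1 was at 3.88, 3.498 and 3.53 FPKM, above all H/R libraries (log2 difference 0.41, SE 0.055, limma adjusted p 0.00023). Its call was also lost without EGR1OV replicate 1. In EGR1OV the Slc16a3 share of the pair was 64.1% ± 0.735, near the share in Sham (SD, n = 3). Pdk1 was at 2.59, 2.34 and 2.41 FPKM in EGR1OV, a log2 difference of -0.78 to H/R (SE 0.054, limma adjusted p 2.83e-06). Pdk4 was at 2.38, 2.48 and 2.91 FPKM, below all libraries of both other groups, with a log2 difference of -0.63 to H/R (SE 0.087, limma adjusted p 0.00027). Pdk4 lay above Sham after H/R and below Sham in EGR1OV, but neither change against Sham was called.

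Pfkl was lower than in H/R by a log2 difference of -0.59 (SE 0.044, limma adjusted p 4.85e-06). Ldha was at 154, 150 and 158 FPKM in EGR1OV, a difference of -0.54 to H/R (SE 0.037, limma adjusted p 2.46e-06), and Pgk1, at 193, 197 and 202 FPKM, was below H/R by a difference under the threshold (-0.30). Tpi1 was at 102 ± 3.41 FPKM, a difference of -0.46 (SE 0.039, limma adjusted p 1.02e-05). Hk2 differed from H/R by 0.78 (SE 0.051, limma adjusted p 1.88e-06) and Pfkfb3 by 0.38 (SE 0.044, limma adjusted p 8.16e-05). The call of Pfkfb3 was lost without H/R replicate 2 and without EGR1OV replicate 1. Eno2 was low in all groups, at 1.09, 0.809 and 0.779 FPKM in H/R and 1.83, 1.48 and 1.19 in EGR1OV. Its difference of 0.40 (SE 0.108, limma adjusted p 0.0128) was lost without H/R replicate 2, without H/R replicate 3 and without EGR1OV replicate 1.

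**Figure D4:**
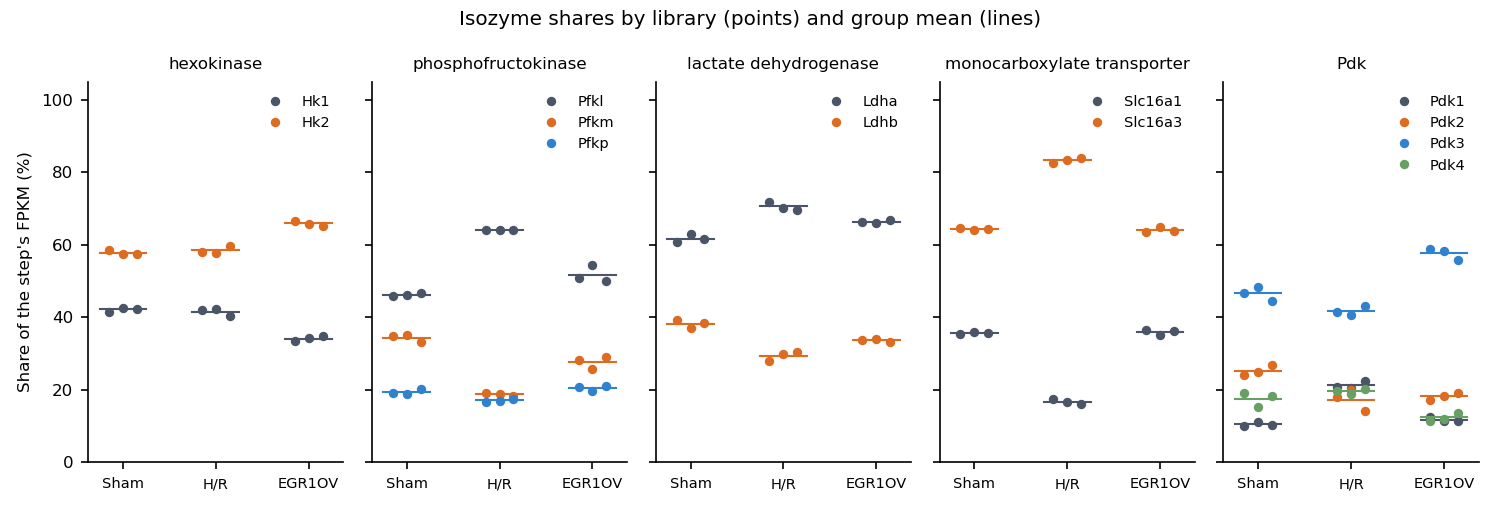
Share in percent of each gene in the summed FPKM of its step, by library (points) with the group mean (lines), for 5 steps. After H/R the shares of Pfkl, Ldha, Slc16a3 and Pdk1 are higher than in Sham, and in EGR1OV the shares of Hk2, Pfkl, Ldha, Pdk3 and, by little, Pdk1 are higher than in Sham in every library.

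The make-up of the kinase step differed between groups more than its total. The 4 Pdk genes summed to 20.1 ± 0.809 FPKM in Sham, 23.1 ± 0.409 after H/R and 20.8 ± 0.381 with EGR1OV (SD, n = 3). Pdk3 held the largest share in each group, with 46.6% ± 1.95 for Sham, 41.7% ± 1.32 for H/R and 57.6% ± 1.65 for EGR1OV. The Pdk1 share was 10.5% ± 0.609, 21.3% ± 0.906 and 11.8% ± 0.586 in the same order, and the Pdk4 share 17.6% ± 1.96, 19.7% ± 0.702 and 12.4% ± 1.16. Of the FPKM of Aldoa and Aldoc together, Aldoa held 99.66% or more in every library, and of Eno1 and Eno2 together, Eno1 held 99.2% or more. That enolase share leaves out Eno3, the muscle enolase, with a Sham mean of 9.31 FPKM, and Eno1b. No test was run on these shares.

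Genes around the pathway were read from 6 lists of neighbouring reactions and HIF targets, which held 92 genes, 75 of them tested. After H/R, HIF targets outside glycolysis were called higher in 5 of 15, against 1.6% of all genes, led by Bnip3, a mitophagy receptor (3.01 ± 0.452 to 6.71 ± 0.243 FPKM), P4ha1, a collagen prolyl hydroxylase (42.9 ± 0.706 to 59.6 ± 1.55 FPKM), and Vegfa, the endothelial growth factor (25.1 ± 1.25 to 33.6 ± 2.38 FPKM; SD, n = 3 each). Their log2 changes were 0.95, 0.47 and 0.41. Not every gene of that list moved this way, since Car9, a carbonic anhydrase, had means of 0.997 FPKM in Sham and 0.584 in H/R and was not called. In the glycogen list Pgm2, a phosphoglucomutase, rose (log2 change 0.41, limma adjusted p 0.00139) as 1 of 10. In the gluconeogenesis list Pck2, the mitochondrial form of the enzyme that makes phosphoenolpyruvate, fell (-0.32, limma adjusted p 0.00281) as 1 of 4, against 2.65% of all genes. Of the 17 citrate cycle genes, limma called none in either direction. There 11 were lower and none was higher at an unadjusted p under 0.05, 6 were lower at an adjusted p under 0.05, and limma voom also called none. Of all genes 18.5% were lower at that unadjusted p and 7.54% at that adjusted p. The 9 pentose phosphate genes and the 20 other isozymes, transporters and regulators gave no call by limma after H/R. At an unadjusted p under 0.05 the former had 4 lower and none higher, the latter 2 in each direction, and limma voom called 1 gene of the latter lower.

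In EGR1OV the pentose phosphate branch, which leaves glycolysis at glucose-6-phosphate and yields NADPH, was called higher in 4 of 9 genes, against 9.87% of all genes. H6pd, the dehydrogenase of the endoplasmic reticulum, rose from 32.7, 33.2 and 35.0 FPKM in Sham to 93.2, 94.8 and 91.9 (log2 change 1.45, SE 0.038, limma adjusted p 2.75e-09). Pgd, the phosphogluconate dehydrogenase, rose from 33.1 ± 0.190 to 54.5 ± 0.291 FPKM (0.70) and G6pdx, the first enzyme of the cytosolic branch, from 21.4 ± 0.621 to 29.4 ± 1.48 (0.44; SD, n = 3 each). Among the other isozymes, Pgam2, the muscle mutase, was called higher (0.57), and Hk3, a hexokinase known from leukocytes (-0.71), the transporter Slc16a7 (-0.51) and the muscle enolase Eno3 (-0.40) lower. In the HIF list 3 of 15 were called higher, namely Vegfa (0.60), Adm, which encodes adrenomedullin (0.55), and Bnip3 (0.38), and in the glycogen list Gbe1, the branching enzyme (0.47). None of the gluconeogenesis and citrate cycle genes was called by limma or by limma voom, with 1 and 6 of them lower and 0 and 2 higher at an unadjusted p under 0.05. Against H/R, H6pd (1.47), Pgd (0.77) and Taldo1, the transaldolase (0.66), led the pentose phosphate genes, 4 of which were called higher, against 11.9% of all genes. P4ha1 (-0.46) and Bnip3 (-0.57) were lower and Adm (0.60) higher than in H/R.

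Marker genes of several cell types were called in both treated groups. Over the Sham libraries the leukocyte and macrophage list summed to 154 to 160 FPKM, against 130 to 140 after H/R and 28.1 to 33.3 with EGR1OV, and all 9 of its 9 tested genes were called lower in EGR1OV than in Sham, against 6.51% of all genes. After H/R, Lyz2 (-0.29) and Adgre1 (-0.36) of that list were called lower, and Col1a1 (0.27) and Col1a2 (0.32) of the fibroblast list and Epcam (0.33) of the tubule list higher. The other way went Pdgfrb of the fibroblast list (-0.23, limma adjusted p 0.0424) and Krt18 of the tubule list (-0.18, limma adjusted p 0.0132). Both were under the fold threshold. Ptprc, the pan-leukocyte marker, had a mean of 0.470 FPKM in Sham and 0.144 in EGR1OV, and Lyz2, the macrophage lysozyme, of 57.7 and 5.46. For the tubule list the sums were 1930 to 1966 FPKM for Sham, 1785 to 1864 for H/R and 1271 to 1377 for EGR1OV, most of it from Krt8 and Krt18. Lrp2 (-1.05) and Aqp1 (-0.75) were called lower in EGR1OV than in Sham, as were Krt8 (-0.71) and Krt18 (-0.73). The endothelial list summed to 11.1 to 11.98, 11.7 to 12.4 and 8.29 to 8.68 FPKM, and the fibroblast list to 32.8 to 34.5, 39.3 to 40.6 and 37.9 to 42.9. No gene of the podocyte and erythroid lists passed the filter on low values. The part of these shifts in the values of the members, after H/R and in EGR1OV, was not tested.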

How the data were processed

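RNA-Seq had been performed on primary mouse tubule cells in 9 libraries. FPKM were deposited by the authors in 1 table with 1 column per library and no pooled replicates. The submitters' processing notes name mm9, HISAT2 2.1.0, Bowtie2 2.2.3 and TopHat2, without a role or order, and how the FPKM were computed is not given in the sources used here. Of the gene positions given, 94.6% equalled those of GENCODE M21 (GRCm38), and 99.8% of identifiers were in it. In 26 rows a symbol that had been turned into a date was restored from the identifier. Sample titles gave the groups and replicate numbers, and no column was left unused for lack of a sample.

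FPKM are not counts, so the limma test was run on log2(FPKM + 1). This scale understates changes of low genes. A mean of 0.5 FPKM or more was required (13985 genes). All 9 libraries entered a limma 3.58.1 fit (R 4.3.3, lmFit and eBayes with trend, two-sided, Benjamini-Hochberg over all genes). The thresholds were an adjusted p of 0.05 with 1.2-fold for H/R against Sham and 1.3-fold for both EGR1OV comparisons. For EGR1OV against H/R the fold was set here, for the others by the study. Dividing by exon length gave whole reads within 0.02 for 98.7% of 154345 values of 1 to 1000 reads, so limma voom on these reads was added after the data were seen. Such reads are not independent molecules, and depth was 16183617 to 18384022. The recovered reads of Pfkm and Pgam1 rest on a length that may differ from the authors'. The fit was also run on simulated libraries with known changes. Their variance was set in proportion to the mean reads and their depths were taken as known. That run therefore does not test the fit under the spread and scaling of these data.

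The other alternatives were a pseudocount of 0.1, no filter, a minimum mean of 5 FPKM, scaling by median ratios, quantile normalization, a replicate block, no trend, only the groups compared, each library left out, no fold threshold and 2-fold. The same-numbered libraries did not deviate together, with correlations of -0.195 to 0.263, so the numbers were not taken as pairs. Isozyme shares were computed per library from FPKM. Promoters were searched over the 250 bases before each RefSeq start, on both strands, for 32 members with 47 starts.

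All 33 members were accounted for. Values of every library were given for members called with a log2 change of at least 0.5 in any comparison and for the isozymes beside them. Of the other lists, up to 3 called genes with the largest change per comparison were named. Car9 and genes given to describe the markers were chosen after their values were seen. The members and lists were chosen with earlier results of these data known. Python 3.11.15, numpy 2.4.6, pandas 2.3.3 and matplotlib 3.10.9 were used.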

Additional observations from a re-analysis of the deposited data

Results flagged for a closer look

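For 10 members the effect of EGR1OV differed from that of H/R by the direct limma test of EGR1OV against H/R, with an adjusted p under 0.05 and at least 1.3-fold. Of all 13985 genes tested, 11.9% were called higher in EGR1OV by this rule and 6.94% lower. EGR1OV was the higher group for Hk2, with a log2 difference of 0.78, Slc16a1 (0.41), Eno2 (0.40) and Pfkfb3 (0.38). It was the lower group for Slc16a3 (-0.84), Pdk1 (-0.78), Pdk4 (-0.63), Pfkl (-0.59), Ldha (-0.54) and Tpi1 (-0.46). In each of these genes the 3 EGR1OV libraries did not overlap with the 3 H/R libraries. The genes were picked by a test of the same libraries, so this is no further support. Its share over all genes was not computed. The differences of Slc16a1, Eno2 and Pfkfb3 were not called under 2 other scalings.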

How the results depend on the processing

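Of 1701 alternative values of single members, 1646 stayed on their side of the threshold, 14 fell below it and 41 passed it. No called value changed sign, but in 17 comparisons of members that were not called, with log2 changes of at most 0.05 in size, the alternatives lay on both sides of 0. All 171 alternative isozyme shares, each with 1 library left out, stayed within 1 SD of the reported mean. Leaving out 1 of 3 libraries cannot move a mean by more than that, so this does not test how stable the shares are. For H/R against Sham, 594 genes, 9 members and 7 genes of the other lists were called. With a mean of at least 5 FPKM 372 genes were called, with limma voom 1001, with no fold threshold 1635 genes and 17 list genes, and at 2-fold 11 genes, 1 member and 0 list genes. For EGR1OV against Sham, 2291 genes, 3 members and 12 list genes were called. With a mean of at least 5 FPKM these were 1315 genes and 7 list genes, with no fold threshold 6417 genes, 21 members and 35 list genes, and at 2-fold 484 genes, 0 members and 1 list gene. Members called numbered 7 with a pseudocount of 0.1, 5 after quantile normalization and 7 with limma voom. For EGR1OV against H/R, 2641 genes, 10 members and 11 list genes were called. With a mean of at least 5 FPKM these were 1520 genes and 6 members, of 23 tested, with no fold threshold 7135 genes, 22 members and 32 list genes, and at 2-fold 489 genes, 0 members and 1 list gene. Leaving out each library gave 449 to 579, 2238 to 2373 and 2583 to 2703 genes in these comparisons, 9 to 11, 2 to 5 and 7 to 11 members, and 7 to 7, 9 to 13 and 11 to 14 list genes. Fewer genes entered the test at 5 FPKM and fewer could pass a higher fold, while for the other alternatives the cause was not tested. With the replicate number as a block, 516, 2309 and 2654 genes and 10, 3 and 10 members were called, and Pdk4 after H/R was the only member whose call changed. Low members rest on few reads, such as Mpc1 with 29 to 47 recovered reads per library and an SE of 0.099 on the log2 scale.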
